A study of Rattus norvegicus with 28 samples.

Results

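Fatty acid oxidation and peroxisome genes were followed in the kidneys of female rats of 2 strains, with both kidneys in place or after the removal of 1 kidney. The set names 40 genes, chosen by gene symbol in the annotation of the array platform: enzymes that activate, import and oxidise fatty acids in mitochondria, enzymes and membrane proteins of peroxisomes, and 3 genes of uptake, transport and regulation. Of these, 39 had a probe set of their own, 20 mitochondrial, 16 peroxisomal and 3 others, out of 14217 genes with 1 symbol on the array. Acaa1a, a peroxisomal thiolase, was measured only by 1 probe set that it shares with another gene and is given no value. Where a gene had several probe sets, the one with the highest mean over the 28 arrays stands for it.

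Fatty acids enter a cell by uptake proteins such as Cd36, are bound by carriers such as Fabp3 and are joined to coenzyme A by synthetases such as Acsl1. Long chains cross into mitochondria as carnitine esters made by Cpt1a and turned back by Cpt2, and are then shortened in a repeated cycle of dehydrogenation, hydration, dehydrogenation and thiolysis. Peroxisomes shorten very long and branched chains by their own enzymes, give off hydrogen peroxide that catalase removes, and hand shortened chains on through carnitine esters. The nuclear receptor Ppara is known to switch on many of these genes, and the proximal tubule of the kidney is known to draw much of its energy from fatty acids.

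The study crossed strain with operation, with 7 arrays in each of 4 groups: SBH/y after uninephrectomy, SBH/y with both kidneys after a sham operation, SBN/y after uninephrectomy and SBN/y with both kidneys after a sham operation. SBH/y and SBN/y are the Sabra strains known to develop and to resist salt-sensitive hypertension, and the study concerned protein loss in urine. All rats were females killed at 5 months of age, 4 months after the operation, and whole-kidney RNA was labelled with biotin for 1-colour Affymetrix rat arrays. Samples are numbered within a group, and nothing in the labels ties each to an animal of its own, so a p-value sets a difference against the spread of these samples, which may in part be technical.

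Values are the deposited log2 intensities, on which a difference of 1 is a doubling. Array medians lay between 5.72 and 5.77, and any pair of arrays correlated at 0.985 to 0.997 over all probe sets. Signal over background was not measured, and 2 of the genes, Acox3 and Ppara, had means below the lowest array median. Proximal tubule markers averaged 11.14 to 11.30 in uninephrectomized SBH/y, 11.28 to 11.38 in sham-operated SBH/y, 10.96 to 11.21 in uninephrectomized SBN/y and 11.17 to 11.37 in sham-operated SBN/y. Markers of heart or skeletal muscle stayed between 3.39 and 3.85, and those of the adrenal gland between 3.62 and 3.98. Macrophage markers were higher in SBH/y than in SBN/y for 5 of 9 genes with both kidneys and 7 of 9 after uninephrectomy, and those of the thick ascending limb lower for 5 of 8 and 7 of 8. Of 19 proximal tubule markers 3 were higher and 0 lower in SBH/y with both kidneys, and 8 higher and 2 lower after uninephrectomy. Distal tubule markers were lower for 3 of 5 in both comparisons, and those of the collecting duct higher for 1 and lower for 4 of 8. Endothelial markers were higher for 1 and lower for 1 of 6 with both kidneys, and higher for 1 and lower for 4 after uninephrectomy. Adipose markers were lower for 2 of 8 with both kidneys, the brown fat uncoupling protein Ucp1 (-2.74 ± 0.38) and the fat cell carrier Fabp4 (-0.71 ± 0.23), and for 0 after uninephrectomy in limma's test, with 1 under an unadjusted p of 0.05. In whole-kidney RNA, fewer cells of a type and less RNA per cell cannot be told apart, and the part of cell composition in the results below was not tested.

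The arrays also differed in clock genes, which cycle with the time of day. A clock gene score was formed for each array as the mean centred log2 value of 11 measured genes, with Bmal1, Npas2 and Clock counted up and 8 genes of the opposite phase, among them Per1, Dbp and Nr1d1, counted down. Of the uninephrectomized SBH/y arrays, 6 scored between -1.21 and -0.79 and replicate 2 scored 0.66, while the sham-operated SBH/y arrays scored 0.44 to 0.68. Of the uninephrectomized SBN/y arrays, 6 scored between 0.17 and 0.59 and replicate 6 scored -0.89, while the sham-operated SBN/y arrays scored -0.28 to 0.47. In both uninephrectomized groups 1 array thus stood apart from its group. Results are given with and without these 2 arrays where it matters. The labels name no hour of killing.

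The promoters below show the start regions of 4 of the genes. Pdk4 had the largest strain difference and the largest fall, and Eci2 the next largest fall. Hadhb and Echs1 were among the 8 genes lower in SBH/y in both operations. The 4 do not stand for the whole set. Crot and Acsl1, with larger differences than Hadhb and Echs1, are not shown. Each sequence runs from 250 bases before to 50 bases after the RefSeq start site in the rat assembly GRCr8, on the gene's own strand, and capitals mark the hexamer AGGTCA or its reverse complement TGACCT, the core of nuclear receptor binding sites. The windows are chr4:34568280-34568579 on the minus strand for Pdk4, chr17:30075516-30075815 on the plus strand for Eci2, chr6:31907451-31907750 on the minus strand for Hadhb and chr1:204333457-204333756 on the minus strand for Echs1. They are reference sequences, not those of SBH/y or SBN/y.
Pdk4: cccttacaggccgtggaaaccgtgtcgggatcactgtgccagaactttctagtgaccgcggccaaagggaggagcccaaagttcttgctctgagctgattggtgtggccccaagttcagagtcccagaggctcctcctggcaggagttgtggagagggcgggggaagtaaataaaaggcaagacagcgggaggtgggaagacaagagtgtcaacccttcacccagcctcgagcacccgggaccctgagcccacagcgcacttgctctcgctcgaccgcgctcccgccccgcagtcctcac
Eci2: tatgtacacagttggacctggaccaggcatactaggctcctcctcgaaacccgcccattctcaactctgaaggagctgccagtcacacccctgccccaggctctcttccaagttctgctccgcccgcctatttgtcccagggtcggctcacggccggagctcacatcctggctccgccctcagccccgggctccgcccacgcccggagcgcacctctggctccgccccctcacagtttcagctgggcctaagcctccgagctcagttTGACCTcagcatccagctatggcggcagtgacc
Hadhb: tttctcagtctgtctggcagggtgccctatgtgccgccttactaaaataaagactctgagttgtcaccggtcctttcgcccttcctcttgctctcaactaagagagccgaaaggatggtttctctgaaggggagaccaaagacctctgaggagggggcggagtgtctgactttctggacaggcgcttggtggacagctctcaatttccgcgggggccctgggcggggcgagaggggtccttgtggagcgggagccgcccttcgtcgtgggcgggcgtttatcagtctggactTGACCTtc
Echs1: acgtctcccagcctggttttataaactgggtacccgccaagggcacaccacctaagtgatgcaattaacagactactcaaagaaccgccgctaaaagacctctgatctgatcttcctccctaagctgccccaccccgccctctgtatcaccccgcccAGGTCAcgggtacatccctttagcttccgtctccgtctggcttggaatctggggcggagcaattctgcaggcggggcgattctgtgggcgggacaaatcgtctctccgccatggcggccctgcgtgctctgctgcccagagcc

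RefSeq held such a window for 36 of the 40 genes. The direct repeat of that hexamer with 1 base of any kind between the copies, the form that PPAR with its partner RXR is known to bind, was searched on both strands and found in 0 of the 36 windows and in 0.0538% of 33469 rat promoters. The same repeat with any base at the 4th position of each copy was also in 0 of the 36, against 0.415% of all promoters. The single hexamer AGGTCA, which the repeat contains, was in 8 of the 36 windows (22.2%), those of Echs1, Amacr, Cat, Hadhb, Eci1, Acadvl, Eci2 and Hsd17b4, against 16.2% of all. CACGTG, the E-box known to be bound by Clock with Bmal1 and added to the search after the clock genes were seen, was in 1 of the 36 windows (2.78%), that of Pecr, against 6.42% of all. A match is a description of these letters, and a missing match says only that they are not in the window. The start sites of Hadha and Hadhb, the subunits of the mitochondrial trifunctional protein, lie 301 bases apart on opposite strands of chromosome 6, so that their windows share 200 bases.

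With both kidneys in place, the genes differed between the strains in both directions. Pdk4 was 2.75-fold and the peroxisomal carnitine acyltransferase Crot 1.89-fold higher in SBH/y than in SBN/y, while the trifunctional subunit Hadhb and the fatty acid carrier Fabp3 were 1.23-fold and 1.24-fold lower. In limma's test, 15 of 39 genes passed a Benjamini-Hochberg adjusted p of 0.05 over the whole array, 6 of them higher and 9 lower in SBH/y. Of all probe sets 17.9% passed, 9.64% higher and 8.31% lower. Here and below, all probe sets include dim ones and 9780 without a gene symbol. Shares among probe sets as bright as the 39 genes are not given. Of the 20 mitochondrial genes 4 were higher and 3 lower, of the 16 peroxisomal genes 2 were higher and 4 lower, and of the 3 others 2 were lower. The median log2 difference over the 39 genes was 0.00, beside -0.02 over all probe sets. In 7 of the genes the 7 SBH/y arrays did not overlap the 7 SBN/y arrays (3 higher, 4 lower), which held for 6.82% of all probe sets (3.65% higher, 3.17% lower).

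**Figure D1:**
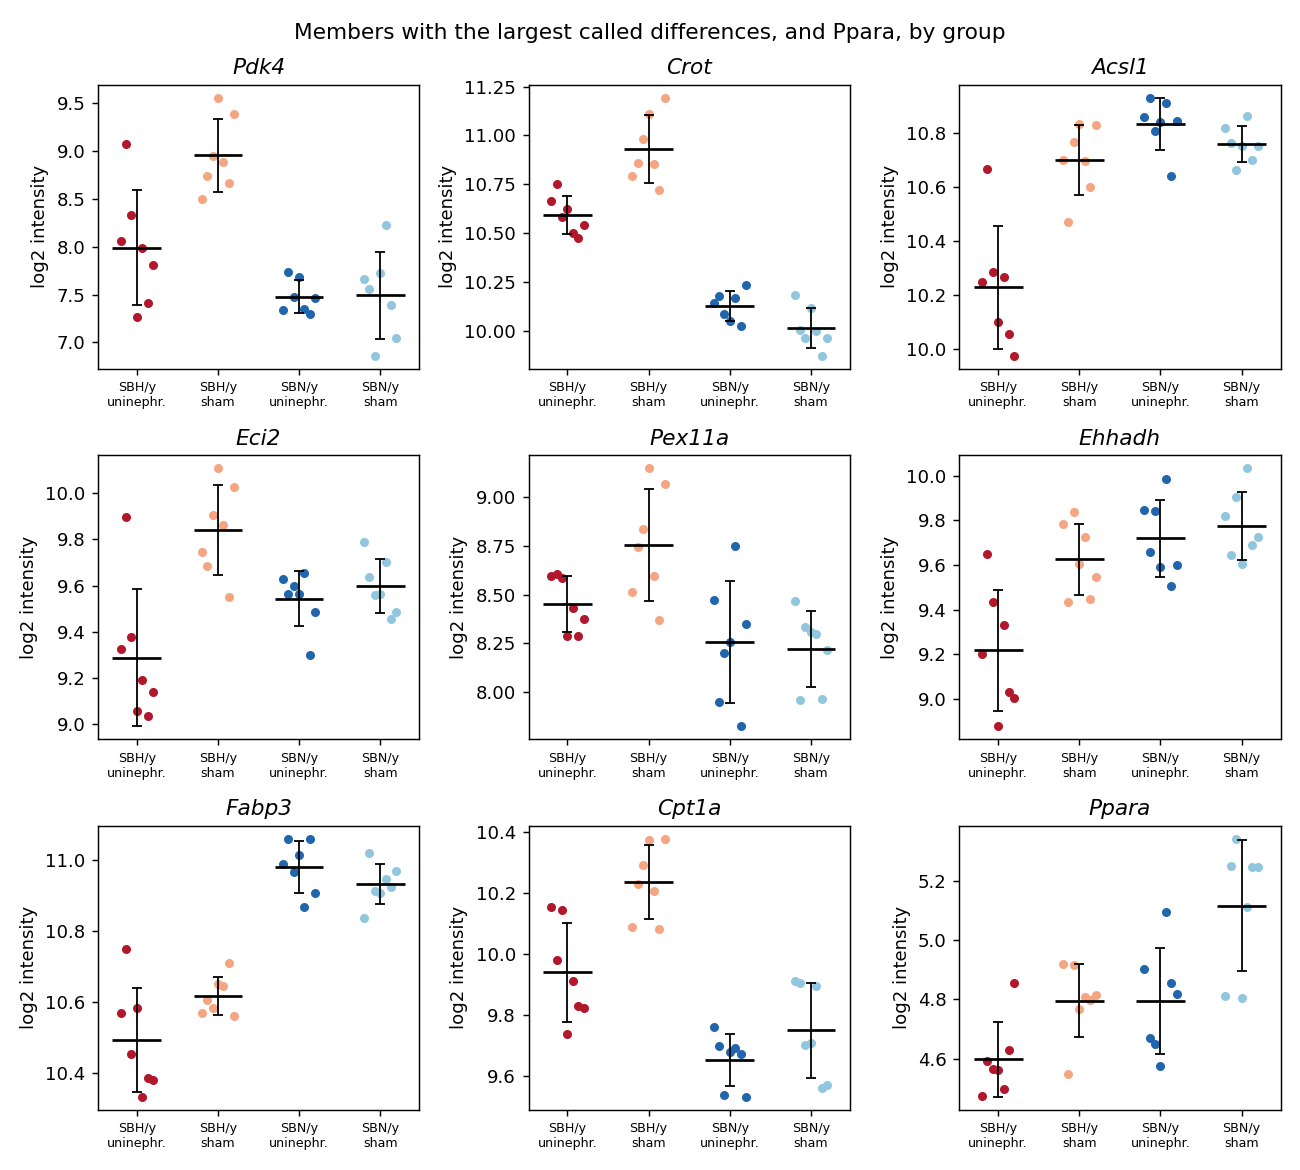
Deposited log2 intensity of the 8 genes with the largest called differences, and of Ppara, in each array (points) of the 4 groups, with the mean (line) and SD (bars) of 7 arrays. Crot lies higher in both SBH/y groups and Fabp3 lower, while Acsl1 is low in 6 of the 7 uninephrectomized SBH/y arrays.

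Pdk4, the kinase that shuts off pyruvate dehydrogenase and so spares glucose when fat is burned, had lowest, median and highest values of 8.50, 8.89 and 9.56 in sham-operated SBH/y, against 6.86, 7.56 and 8.23 in sham-operated SBN/y. The lowest SBH/y array lay above the highest SBN/y array. The log2 difference was 1.46 ± 0.21 (SE; adjusted p = 3.14e-06), and a second, dimmer probe set gave 0.74. Pdk4 also varied most within groups, with a residual SD of 0.43, against 0.04 for Scp2, the least variable of the 39.

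Cpt1a, the enzyme of the rate-limiting step of fatty acid entry into mitochondria, had lowest, median and highest values of 10.08, 10.23 and 10.38 in sham-operated SBH/y, against 9.56, 9.71 and 9.91 in sham-operated SBN/y, with no overlap. Its log2 difference was 0.49 ± 0.07 (adjusted p = 3.64e-06). Neither Acsl1, which activates long-chain fatty acids (-0.06 ± 0.07), nor Cpt2, which completes their import (0.06 ± 0.06), passed the test. Of the 9 enzymes of the mitochondrial cycle, Hadhb was lower at -0.30 ± 0.04 (adjusted p = 2.88e-07) and the short-chain enoyl-CoA hydratase Echs1 at -0.15 ± 0.05 (adjusted p = 0.0239). Hadha, which makes a complex with Hadhb, differed by -0.04 ± 0.05 and did not pass. Echs1 lost its call without sham-operated SBN/y replicate 3 or 5 or sham-operated SBH/y replicate 6 or 7, where its adjusted p reached 0.0597.

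None of the 5 enzymes for unsaturated chains (Ech1, Eci1, Eci2, Decr1 and Decr2) passed, with log2 differences from 0.00 to 0.24. Among the proteins that pass electrons on to the respiratory chain, Etfdh, the membrane enzyme that hands them to ubiquinone, was higher at 0.24 ± 0.06 and Etfb, a subunit of the soluble carrier, lower at -0.15 ± 0.04 (adjusted p = 0.00489 and 0.00559). Acot2, a mitochondrial thioesterase, was higher at 0.30 ± 0.07, but a second probe set gave -0.04, and the signal of near-identical thioesterase genes may be mixed in.

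In peroxisomes, Crot, which makes carnitine esters of shortened chains for export, had lowest, median and highest values of 10.72, 10.86 and 11.19 in sham-operated SBH/y, against 9.87, 9.999 and 10.18 in sham-operated SBN/y. The groups were apart, at 0.91 ± 0.06 (adjusted p = 8.19e-13). A second Crot probe set gave 1.06 and the dimmest one -0.59, so the probe sets of this gene disagreed in sign. Pex11a, which promotes peroxisome division, had 8.37, 8.74 and 9.15 in sham-operated SBH/y, against 7.96, 8.30 and 8.47 in sham-operated SBN/y. These groups overlapped, with a log2 difference of 0.53 ± 0.12 (adjusted p = 0.00149). Lower in SBH/y were catalase (Cat, -0.19 ± 0.05), the membrane channel protein Pxmp2 (-0.16 ± 0.05), the phytanoyl-CoA hydroxylase Phyh (-0.15 ± 0.04) and the carrier and thiolase gene Scp2 (-0.09 ± 0.03). The Scp2 call, with an adjusted p of 0.0475, held in only 7 of the 28 fits that each left out 1 array, where its adjusted p reached 0.0965. The Pxmp2 call was lost without sham-operated SBN/y replicate 3, 5, 6 or 7 or sham-operated SBH/y replicate 2, with an adjusted p of up to 0.0817.

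Ppara, the receptor that regulates many of these genes, was dim, with lowest, median and highest values of 4.55, 4.81 and 4.92 in sham-operated SBH/y and 4.81, 5.25 and 5.34 in sham-operated SBN/y. Its log2 difference was -0.32 ± 0.08 (adjusted p = 0.00657), lower in SBH/y, and the groups overlapped. Fabp3 had 10.56, 10.60 and 10.71 in sham-operated SBH/y, against 10.84, 10.93 and 11.02 in sham-operated SBN/y, with no overlap and a log2 difference of -0.32 ± 0.05 (adjusted p = 2.65e-05). Whether probe sequences differ between the strains was not tested, and for a single probe set a base change under a probe and a difference in RNA cannot be told apart.

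**Figure D2:**
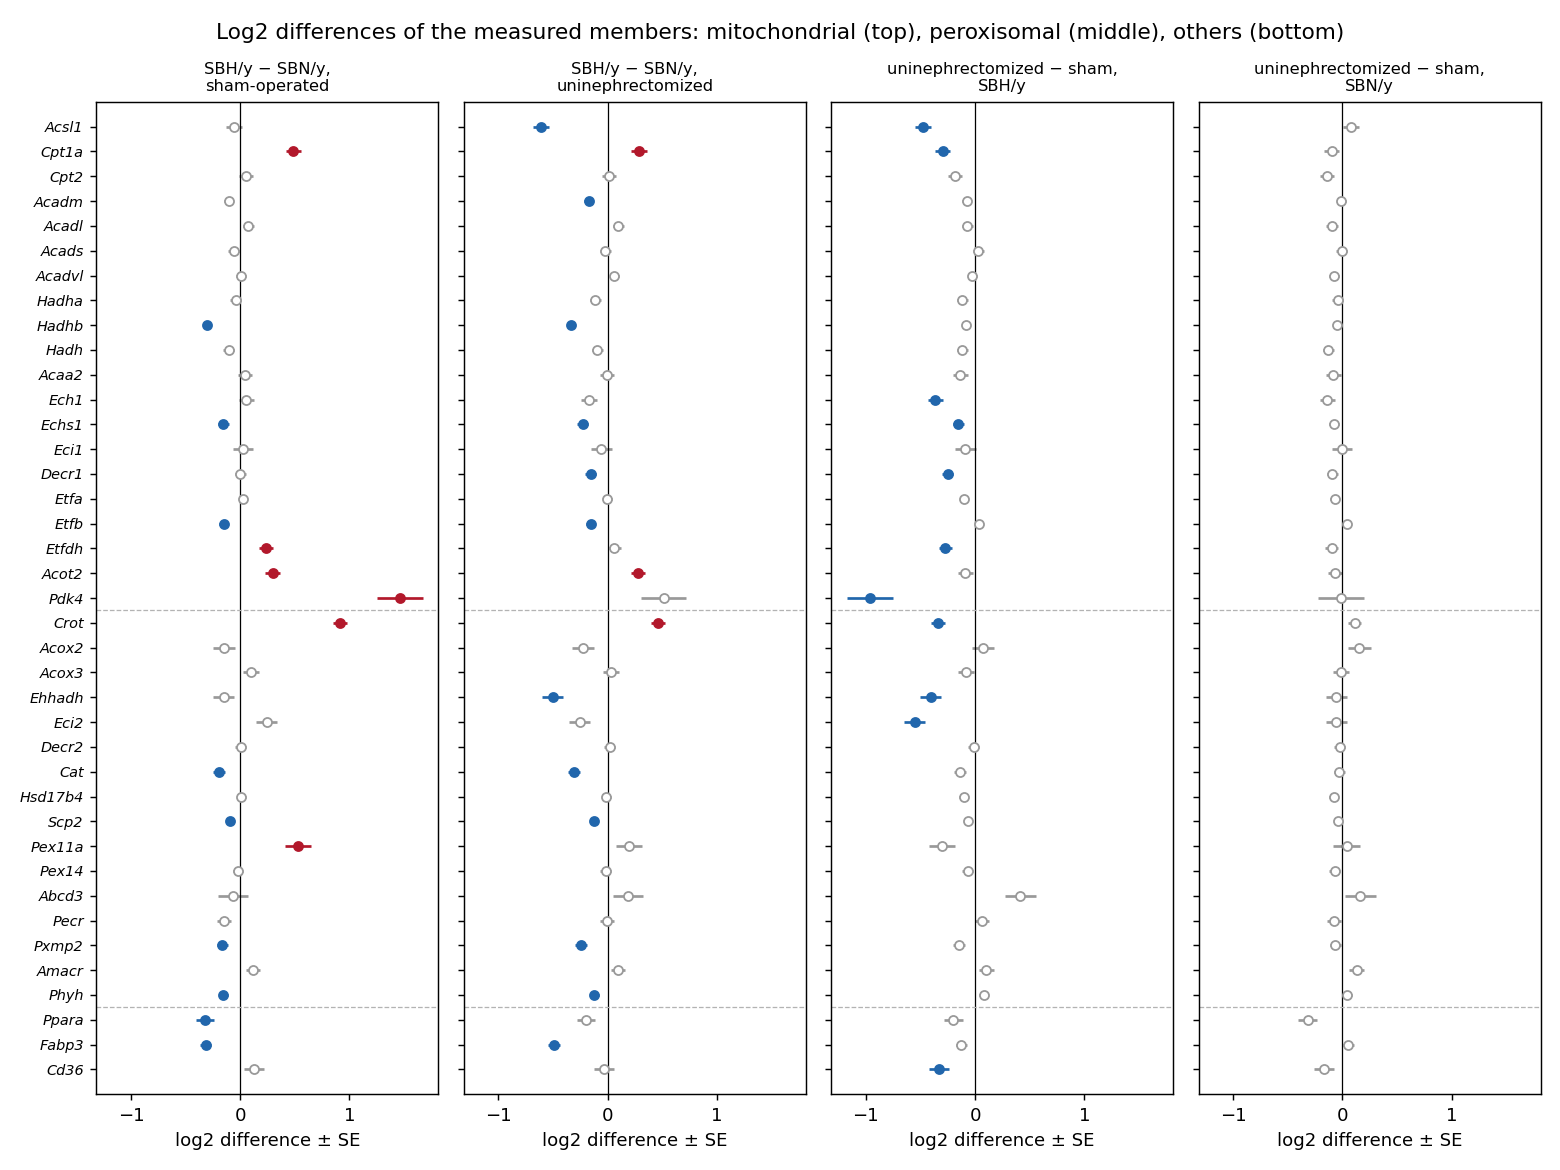
Log2 differences with SE of the 39 genes in the 4 comparisons of 2 groups (mitochondrial genes at the top, peroxisomal in the middle, others at the bottom); filled points passed an adjusted p of 0.05 (red higher, blue lower). The 2 strain panels hold 15 filled points each, uninephrectomy in SBH/y 11, all below 0, and uninephrectomy in SBN/y 0.

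After uninephrectomy, more of the called genes were lower than higher in SBH/y, 12 against 3, a split that became 6 against 6 with the clock gene score as a covariate. Acsl1 was 1.52-fold, the peroxisomal bifunctional enzyme Ehhadh 1.42-fold and Fabp3 1.40-fold lower in the SBH/y kidneys than in those of SBN/y, and Crot 1.38-fold higher. Again 15 of 39 genes passed, here 3 higher and 12 lower, against 21.5% of all probe sets, 11.1% higher and 10.3% lower. Of the 20 mitochondrial genes 2 were higher and 6 lower, of the 16 peroxisomal genes 1 was higher and 5 lower, and of the 3 others 1 was lower. The median log2 difference over the 39 genes was -0.03, beside -0.01 over all probe sets. In 5 genes the groups did not overlap (Crot higher, and Hadhb, Echs1, Cat and Fabp3 lower), which held for 9.15% of all probe sets (4.94% higher, 4.21% lower).

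Acsl1 had lowest, median and highest values of 9.98, 10.25 and 10.67 in uninephrectomized SBH/y, against 10.64, 10.85 and 10.93 in uninephrectomized SBN/y. Only the arrays with clock scores apart touched, SBH/y replicate 2 at 10.67 and SBN/y replicate 6 at 10.64. The log2 difference was -0.61 ± 0.07 (adjusted p = 1.42e-07), and a second probe set gave -0.56. Ehhadh, which carries out the middle steps of peroxisomal oxidation, had 8.88, 9.20 and 9.65 in uninephrectomized SBH/y, against 9.51, 9.66 and 9.99 in uninephrectomized SBN/y. Its log2 difference was -0.50 ± 0.10 (adjusted p = 2.09e-04), and with the clock gene score as a covariate it was -0.34 ± 0.12 (adjusted p = 0.0578).

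Fabp3 had 10.33, 10.45 and 10.75 in uninephrectomized SBH/y, against 10.87, 10.99 and 11.06 in uninephrectomized SBN/y, a log2 difference of -0.49 ± 0.05 (adjusted p = 8.51e-09). Crot had 10.47, 10.58 and 10.75 in uninephrectomized SBH/y, against 10.02, 10.14 and 10.24 in uninephrectomized SBN/y, a log2 difference of 0.46 ± 0.06 (adjusted p = 9.01e-07). Neither gene's groups overlapped. Cpt1a had 9.74, 9.91 and 10.15 in uninephrectomized SBH/y, against 9.53, 9.68 and 9.76 in uninephrectomized SBN/y, and these overlapped, with a log2 difference of 0.29 ± 0.07 (adjusted p = 0.00256). Acot2 was higher at 0.28 ± 0.07.

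The lower mitochondrial genes besides Acsl1 were Hadhb (-0.34 ± 0.04), Echs1 (-0.23 ± 0.05), the medium-chain dehydrogenase Acadm (-0.17 ± 0.04), Etfb (-0.15 ± 0.04) and the dienoyl-CoA reductase Decr1 (-0.15 ± 0.05). The lower peroxisomal genes besides Ehhadh were Cat (-0.30 ± 0.05), Pxmp2 (-0.24 ± 0.05), Scp2 (-0.12 ± 0.03) and Phyh (-0.12 ± 0.04). The Phyh call held in 19 and the Decr1 call in 23 of the 28 fits that each left out 1 array, with adjusted p up to 0.102 for Phyh and 0.0782 for Decr1. Decr1 lost it without uninephrectomized SBH/y replicate 4, 5 or 7 or uninephrectomized SBN/y replicate 1 or 5.

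Pdk4 and Pex11a, both higher in SBH/y with both kidneys, did not pass after uninephrectomy. Pdk4 had 7.26, 7.99 and 9.07 in uninephrectomized SBH/y, against 7.30, 7.47 and 7.74 in uninephrectomized SBN/y, with a log2 difference of 0.51 ± 0.21 (adjusted p = 0.0816). With the clock gene score as a covariate this was 0.997 ± 0.24 (adjusted p = 0.00341). Pex11a had 8.29, 8.43 and 8.60 in uninephrectomized SBH/y, against 7.83, 8.26 and 8.75 in uninephrectomized SBN/y, with a log2 difference of 0.19 ± 0.12 (adjusted p = 0.291). The strain differences with both kidneys and after uninephrectomy rest on separate arrays. The same 11 genes were called in the same direction in both, 73.3% of the 15 in either comparison: Cpt1a, Acot2 and Crot higher, and Hadhb, Echs1, Etfb, Cat, Scp2, Pxmp2, Phyh and Fabp3 lower. These calls are those of the chosen probe sets. For Cpt1a, Acot2, Crot and Scp2, not every probe set passed in that direction in both comparisons. Over all probe sets, the 3547 called the same way in both were 63.7% of those called with both kidneys and 53.2% of those called after uninephrectomy. None of the 39 genes was called in opposite directions, as 24 probe sets of the array were.

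In SBN/y, none of the 39 genes passed limma's test for uninephrectomy, against 0.464% of all probe sets (0.222% higher, 0.242% lower), and none had its groups apart, against 0.409% of all (0.229% higher, 0.18% lower). The median log2 difference over the 39 genes was -0.06, beside 0.00 over all probe sets. Values were below 0 for 30 of the 39 genes, and for 32 after uninephrectomy in SBH/y. Of the 20 mitochondrial genes, 18 were below 0 in either strain. At an unadjusted p of 0.05, 3 genes were lower after uninephrectomy: Ppara at -0.32 ± 0.08 (adjusted p = 0.0872), the short-chain hydroxyacyl-CoA dehydrogenase Hadh at -0.13 ± 0.05 (adjusted p = 0.376) and Cpt2 at -0.14 ± 0.06 (adjusted p = 0.502). Ppara had 4.58, 4.82 and 5.09 in uninephrectomized SBN/y, against 4.81, 5.25 and 5.34 in sham-operated SBN/y. It passed in 3 of the 28 fits that each left out 1 array, those without sham-operated SBN/y replicate 1 or 4 or uninephrectomized SBN/y replicate 5. The 95% intervals of the 39 log2 differences lay within -0.49 to 0.45.

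In SBH/y, uninephrectomy went with lower values across several steps of fatty acid oxidation. Pdk4 fell by 0.96 ± 0.21 on the log2 scale, Eci2 by 0.55 ± 0.10, Acsl1 by 0.47 ± 0.07 and Ehhadh by 0.41 ± 0.10. In all, 11 of 39 genes passed (28.2%), 0 higher and 11 lower, against 8.24% of all probe sets, 3.33% higher and 4.91% lower. Of the 20 mitochondrial genes 7 were lower, of the 16 peroxisomal genes 3, and of the 3 others 1. The median log2 difference over the 39 genes was -0.12, beside 0.01 over all probe sets. In no gene were the 7 uninephrectomized arrays apart from the 7 sham-operated ones, which held for 1.96% of all probe sets (0.883% higher, 1.07% lower). This comparison shares arrays with both strain comparisons.

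Pdk4 had lowest, median and highest values of 7.26, 7.99 and 9.07 in uninephrectomized SBH/y, against 8.50, 8.89 and 9.56 in sham-operated SBH/y (adjusted p = 0.00294). Only uninephrectomized replicate 2, at 9.07, lay within the sham-operated range. A second Pdk4 probe set gave -0.65. Acsl1 had 9.98, 10.25 and 10.67 in uninephrectomized SBH/y, against 10.47, 10.70 and 10.83 in sham-operated SBH/y (adjusted p = 8.3e-05). Again the highest uninephrectomized array was replicate 2, and the other 6 lay at or below 10.28. Cpt1a had 9.74, 9.91 and 10.15 in uninephrectomized SBH/y, against 10.08, 10.23 and 10.38 in sham-operated SBH/y, a log2 difference of -0.30 ± 0.07 (adjusted p = 0.00633).

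Enzymes that prepare unsaturated chains for the cycle were lower in 3 of 5 genes. Eci2, an isomerase that moves double bonds, found mainly in peroxisomes, had 9.03, 9.19 and 9.90 in uninephrectomized SBH/y, against 9.55, 9.86 and 10.11 in sham-operated SBH/y (adjusted p = 3.78e-04). Replicate 2, at 9.90, was the array inside the sham-operated range. Ech1, a dienoyl-CoA isomerase, fell by 0.36 ± 0.07 (adjusted p = 7.9e-04), and Decr1 by 0.25 ± 0.05 (adjusted p = 0.00172). Eci1 and Decr2 differed by -0.09 ± 0.09 and -0.01 ± 0.05 and did not pass.

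Of the 9 enzymes of the mitochondrial cycle itself only Echs1 passed, at -0.15 ± 0.05 with an adjusted p of 0.0455. That call held in 14 of the 28 fits that each left out 1 array, where its adjusted p reached 0.125. The 4 acyl-CoA dehydrogenases Acadvl, Acadl, Acadm and Acads, which take the first step for ever shorter chains, ranged from -0.08 to 0.03. Etfdh fell by 0.27 ± 0.06 (adjusted p = 0.00369), while Etfa (-0.10 ± 0.04) and Etfb (0.04 ± 0.04) did not pass.

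Of the 10 genes of peroxisomal oxidation and transport, 2 were lower. Crot had 10.47, 10.58 and 10.75 in uninephrectomized SBH/y, against 10.72, 10.86 and 11.19 in sham-operated SBH/y, a log2 difference of -0.34 ± 0.06 (adjusted p = 5.77e-04). Ehhadh had 8.88, 9.20 and 9.65 in uninephrectomized SBH/y, against 9.43, 9.60 and 9.84 in sham-operated SBH/y (adjusted p = 0.00694). The D-bifunctional enzyme Hsd17b4, which takes the same steps as Ehhadh for branched chains, differed by -0.11 ± 0.04 and did not pass. Abcd3, the membrane transporter that lets acyl-CoA into peroxisomes, had the largest positive difference of the 39, 0.42 ± 0.14, and did not pass (adjusted p = 0.0605). With the replicate number as a block it passed as higher, at 0.42 ± 0.09 (adjusted p = 0.00255), and 12 genes then passed, 1 higher and 11 lower. The share of all probe sets under the block is not given here, so that count is not a result about the set. None of catalase (-0.14 ± 0.05), Pex11a (-0.30 ± 0.12), the import receptor docking protein Pex14 (-0.07 ± 0.05) and Pxmp2 (-0.14 ± 0.05) passed.

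Cd36, the fatty acid uptake receptor, fell by 0.33 ± 0.09 (adjusted p = 0.0228). It had 7.76, 8.03 and 8.30 in uninephrectomized SBH/y, against 8.13, 8.48 and 8.53 in sham-operated SBH/y. The call was lost without uninephrectomized SBH/y replicate 4 or sham-operated SBH/y replicate 1, 3 or 7, with an adjusted p of up to 0.0639. Fabp3 had 10.33, 10.45 and 10.75 in uninephrectomized SBH/y, against 10.56, 10.60 and 10.71 in sham-operated SBH/y, a log2 difference of -0.12 ± 0.05 that did not pass. Ppara had 4.47, 4.57 and 4.86 in uninephrectomized SBH/y, against 4.55, 4.81 and 4.92 in sham-operated SBH/y, a log2 difference of -0.20 ± 0.08 (adjusted p = 0.159). Proximal tubule markers, measured for 19 genes, were higher for 1 and lower for 4 in this comparison, and macrophage markers were higher for 2 of 9. Distal tubule markers were higher for 4 of 5, among them Slc8a1 (0.42 ± 0.07) and Calb1 (0.38 ± 0.11), and endothelial markers lower for 2 of 6, Kdr (-0.31 ± 0.05) and Emcn (-0.24 ± 0.06). Of the thick ascending limb 1 of 8 was higher, of the collecting duct 1 of 8 lower, and 0 of 8 adipose markers passed limma's test, with 1 under an unadjusted p of 0.05. Their part in the lower values of the 11 genes was not tested.

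**Figure D3:**
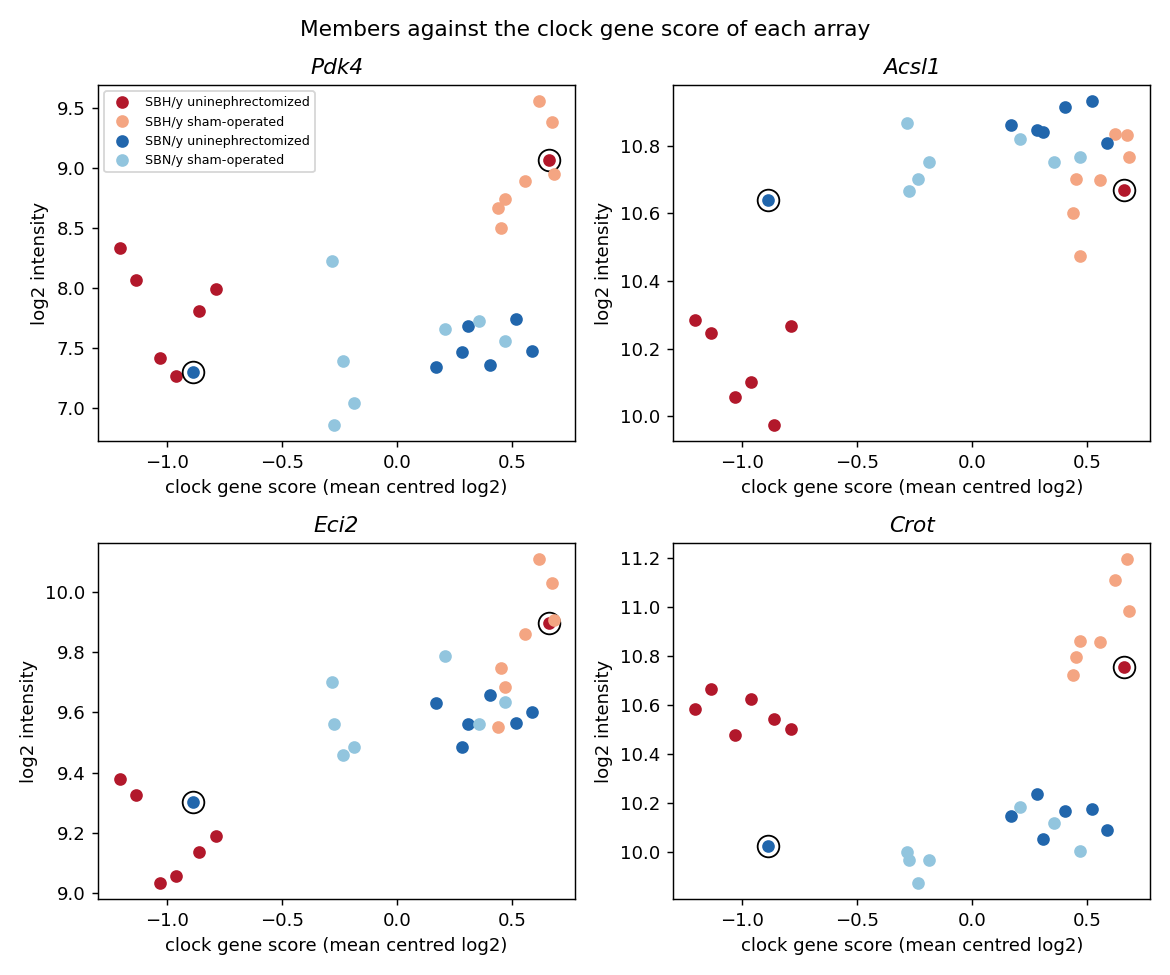
Log2 intensity of Pdk4, Acsl1, Eci2 and Crot against the clock gene score of each of the 28 arrays, coloured by group; circles mark uninephrectomized SBH/y replicate 2 and uninephrectomized SBN/y replicate 6. Replicate 2, with a score of 0.66, lies among the sham-operated SBH/y arrays for Pdk4, Acsl1, Eci2 and Crot, while the other 6 uninephrectomized SBH/y arrays lie at scores from -1.21 to -0.79.

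The falls in SBH/y went together with the clock gene score. Uninephrectomized SBH/y replicate 2, the array with a score like the sham-operated ones, was the highest of its 7 arrays for 28 of the 39 genes, against 15.3% of all probe sets. For the 11 genes that fell it was the highest in 10, against 54.2% of all probe sets lower in that comparison, and it lay within or above the sham-operated range in 10. In uninephrectomized SBN/y, replicate 6, with a score of -0.89, was the lowest of its 7 arrays for 19 of the 39 genes, against 13.3% of all probe sets. It was the lowest for 8 of those 11, against 27.1% of all probe sets lower after uninephrectomy in SBH/y. In uninephrectomized SBH/y replicate 2, Havcr1, a marker of tubule injury, was 7.12, within the 6.64 to 8.81 of its labelled group and above the 4.36 to 5.07 of sham-operated SBH/y.

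With the clock gene score as a covariate, 0 of the 39 genes passed limma's test for uninephrectomy in SBH/y, and 5 were under an unadjusted p of 0.05, 2 higher and 3 lower. All 11 differences stayed below 0 but shrank: Pdk4 was -0.30 ± 0.28 (adjusted p = 0.884), Eci2 -0.15 ± 0.11 (adjusted p = 0.838), Acsl1 -0.18 ± 0.09 (adjusted p = 0.592) and Cpt1a -0.26 ± 0.11 (adjusted p = 0.458). Over all probe sets the calls fell to 79, against 2558 without the covariate. With the 2 arrays left out instead, 15 genes passed, all lower: the same 11 with Cpt2, Hadha, Pxmp2 and Fabp3. In that fit 9.98% of all probe sets passed, 4.07% higher and 5.91% lower. Without replicate 2, 9 of the 39 genes had their other 6 uninephrectomized arrays below every sham-operated SBH/y array, which held for 2.66% of all probe sets: Pdk4, Eci2, Acsl1, Ehhadh, Ech1, Crot, Etfdh, Decr1 and Hadhb. Replicate 2 was left out because its clock gene score was seen to stand apart. Apart from replicate 2, no uninephrectomized SBH/y array had a score near those of sham-operated SBH/y, and for these arrays operation and clock phase cannot be told apart.

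**Figure D4:**
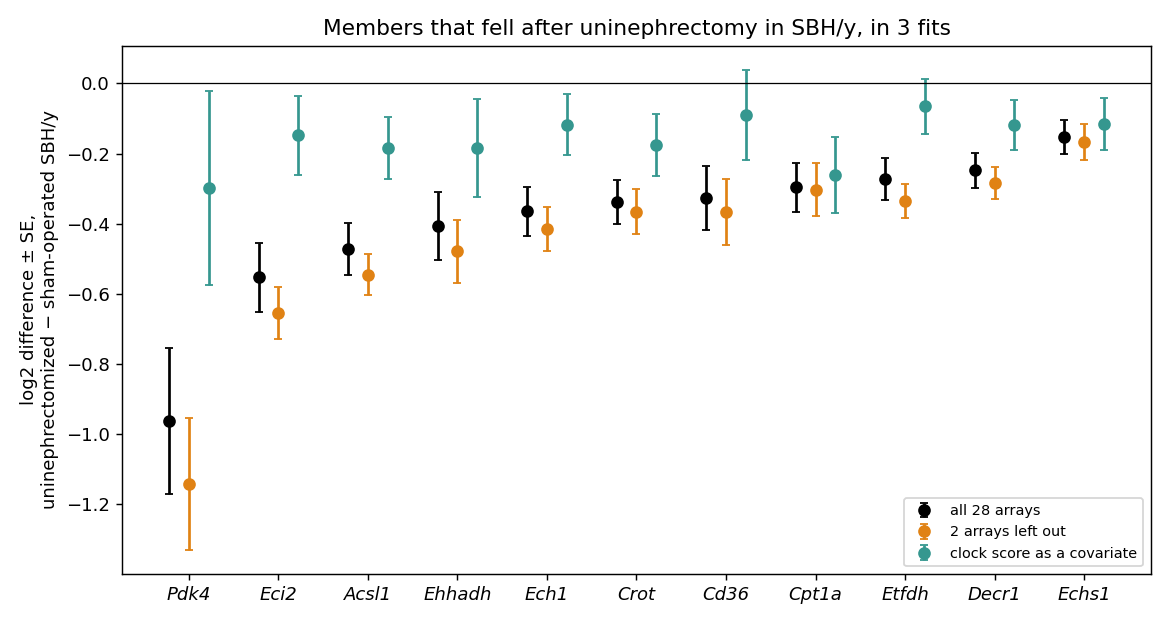
Log2 difference with SE of the 11 genes that fell after uninephrectomy in SBH/y, with all 28 arrays (black), with the 2 arrays left out (orange) and with the clock gene score as a covariate (green). Pdk4 reads -0.96, -1.14 and -0.30 in these fits, and Cpt1a -0.30, -0.30 and -0.26.

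Only for 2 genes did the effect of uninephrectomy differ between the strains by the interaction test, both negative, against 1.41% of all probe sets, 0.596% positive and 0.818% negative. Acsl1 differed by -0.55 ± 0.10 (effect in SBH/y minus effect in SBN/y, adjusted p = 0.00575), from effects of -0.47 in SBH/y and 0.07 in SBN/y. A second Acsl1 probe set gave -0.52. Crot differed by -0.45 ± 0.09 (adjusted p = 0.00701), from effects of -0.34 in SBH/y and 0.11 in SBN/y, and its second probe set gave -0.47. Eci2 (-0.50 ± 0.14, adjusted p = 0.0634) and Pdk4 (-0.95 ± 0.30, adjusted p = 0.111) did not pass. For the other 9 genes that fell in SBH/y a difference between the strains was thus not shown. With the clock gene score as a covariate neither gene passed: Acsl1 was -0.22 ± 0.11 (adjusted p = 0.998) and Crot -0.26 ± 0.11 (adjusted p = 0.944). In that fit 0 of the 31042 probe sets passed for the interaction. With the 2 arrays left out 6 passed, all negative: Acsl1, Crot, Eci2, Pdk4, Ehhadh and Etfdh. The calls over all probe sets then numbered 977 (3.15%, with 1.81% negative), against 439 with all arrays. Pdk4 then was -1.16 ± 0.26 (adjusted p = 0.0105), and without uninephrectomized SBH/y replicate 2 alone it was -1.13 ± 0.26 (adjusted p = 0.011).

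More of the strain calls than of the uninephrectomy calls held with the clock gene score as a covariate. The score was not spread evenly over the comparisons. Apart from replicate 2, uninephrectomized SBH/y arrays scored -1.21 to -0.79, and sham-operated ones 0.44 to 0.68. Sham-operated SBN/y scored -0.28 to 0.47, and uninephrectomized SBN/y, apart from replicate 6, 0.17 to 0.59. The counts kept therefore do not rank strain and operation by their tie to the clock. With the covariate 13 genes passed with both kidneys, 12 of them among the 15. They were 5 higher and 8 lower, against 14.8% of all probe sets (8.1% higher, 6.74% lower). After uninephrectomy 12 passed, of which 9 were among the 15, against 13.5% of all probe sets. These were 6 higher and 6 lower, beside 7.4% and 6.14% of all probe sets, so the 3 higher and 12 lower genes without the covariate became an even split. The values of Crot (0.85 ± 0.06 with both kidneys, 0.58 ± 0.07 after uninephrectomy), Hadhb (-0.33 ± 0.04 and -0.28 ± 0.05) and Fabp3 (-0.35 ± 0.06 and -0.43 ± 0.07) kept their direction and their calls, and Acsl1 after uninephrectomy was -0.40 ± 0.08 (adjusted p = 3.34e-04). With the 2 arrays left out, 16 passed with both kidneys, 7 higher and 9 lower, against 17.9% of all probe sets in that fit. After uninephrectomy 17 passed, 3 higher and 14 lower, against 20.4% of all probe sets.

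Of 92 further genes of fatty acid metabolism and peroxisomes, 83 were measured. With both kidneys 17 were higher and 14 lower in SBH/y, with a median log2 difference of 0.00. Of all probe sets 9.64% were higher and 8.31% lower. Pxmp4, a peroxisomal membrane protein, was higher by 2.39 ± 0.09 and the acyl-CoA thioesterase Acot3 by 1.33 ± 0.09, while Mpv17l, a relative of Pxmp2, was lower (-1.84 ± 0.06), as were the medium-chain acyl-CoA synthetase Acsm5 (-1.01 ± 0.09) and the epoxide hydrolase Ephx2 (-0.57 ± 0.05). After uninephrectomy 15 were higher and 21 lower in SBH/y, against 11.1% and 10.3% of all probe sets. With the clock gene score as a covariate 16 were higher and 12 lower, against 7.4% and 6.14% of all. Without the covariate, Pxmp4 after uninephrectomy was 2.35 ± 0.09 and Mpv17l -1.94 ± 0.06. Idh1, the cytosolic and peroxisomal isocitrate dehydrogenase, was higher by 0.52 ± 0.05, and Acsm3 was lower (-0.65 ± 0.07).

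For uninephrectomy in SBN/y, 0 of the 83 passed limma's test, against 0.464% of all probe sets. At an unadjusted p of 0.05 there were 8, 2 higher and 6 lower. For uninephrectomy in SBH/y, 1 rose and 19 fell, against 3.33% and 4.91% of all probe sets. The median log2 difference was -0.04. With the clock gene score as a covariate 0 of the 83 passed, against 0.254% of all, with 9 under an unadjusted p of 0.05. Angptl4, a secreted inhibitor of lipoprotein lipase and a known PPAR target, fell by 1.18 ± 0.23 (adjusted p = 0.00102), the receptor Ppard by 0.65 ± 0.12, Acsm5 by 0.57 ± 0.09 and Acsm3 by 0.40 ± 0.07. The gene that rose was Acot8, a peroxisomal thioesterase, at 0.30 ± 0.06. With the 2 arrays left out, 23 of the 83 passed for uninephrectomy in SBH/y, all 20 earlier calls among them. Of the 23, 2 were higher and 21 lower, against 4.07% and 5.91% of all probe sets in that fit. The interaction passed for 4 of the 83, against 1.41% of all probe sets. With the covariate it passed for 0 of the 83 and 0% of all, with 6 of the 83 under an unadjusted p of 0.05. With the 2 arrays left out it passed for 10 of the 83, 1 positive and 9 negative, against 1.34% and 1.81% of all probe sets. Of the 4 with all arrays, Idh1 was positive (0.34 ± 0.07), and Ppard (-0.88 ± 0.17), the lipid droplet protein Plin2 (-0.38 ± 0.09) and the peroxisome biogenesis gene Pex19 (-0.36 ± 0.09) were negative.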

How the data were processed

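The authors deposited 1 table of log2 values for 31099 probe sets on 28 arrays. GCOS, the scanner software, and RMA, which corrects background, quantile-normalizes and summarises probes on the log2 scale, are named, without a version, per the submitters' processing notes. RMA values cannot show differences in total RNA between samples. Of 31042 probe sets left after 57 control probe sets were taken out, 20826 had 1 gene symbol in the platform annotation, updated by gene identifier through RefSeq's gene table (GRCr8), 436 had several and 9780 had none.

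Group means were fitted to all arrays with limma 3.58.1 in R 4.3.3 (lmFit, eBayes with default settings), with Benjamini-Hochberg adjustment over the 31042 probe sets within each of 5 comparisons and a threshold of 0.05. Errors beside log2 differences are limma's standard errors, folds are 2 raised to the log2 difference, and the fits were tested on simulated data. Those data had independent noise in each probe set and array, so they do not cover arrays that stand apart from their group. The number of arrays limits the precision.

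The 40 genes, the lists of further pathway genes and of cell type markers, and the clock gene score were chosen with earlier results of these data known. Genes given with their range in every group were the 8 called genes with the largest log2 difference in a comparison of 2 groups, plus Ppara; of the further pathway genes, up to 4 called genes with the smallest p per comparison and direction could be named. Alternatives were quantile normalization, median and 75th percentile centring, leaving out the dimmest 40% of probe sets, a trended and robust variance, only the 2 groups compared, the replicate number as a block, the clock gene score as a covariate, the mean of a gene's probe sets, and each array left out in turn. Leaving out 2 arrays together was added after the data were seen. Protein sequences were not used here.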

Additional observations from a re-analysis of the deposited data

Results flagged for a closer look

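The uninephrectomy effect differed between the strains by the interaction test for Acsl1 (-0.546, SBH/y minus SBN/y) and Crot (-0.451), and the clock gene score stood apart in 1 array of each uninephrectomized group, SBH/y replicate 2 (0.6608) and SBN/y replicate 6 (-0.885). The report gives these results with and without the 2 arrays.

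Among 156 groups of 7 arrays looked at for the 39 genes, 17 held an array far from the others by Dixon's test, where chance gives about 1 group in 20. Uninephrectomized SBH/y replicate 2 was high for Hadhb (11.25), Etfdh (9.515) and Eci2 (9.898). Uninephrectomized SBN/y replicate 6 was low for Acsl1 (10.64), Eci1 (9.781) and Etfb (11.04). Uninephrectomized SBH/y replicate 6 was low for Echs1 (10.32), Cat (11.27) and Pex14 (6.814). Uninephrectomized SBH/y replicate 7 was low for Acox3 (5.337) and high for Ppara (4.857), and replicate 5 of that group was high for Phyh (11.86). Uninephrectomized SBN/y replicate 4 was high for Acadm (11.17). Sham-operated SBH/y replicate 2 was low for Pxmp2 (9.388) and Ppara (4.549). In sham-operated SBN/y, replicate 5 was high for Etfdh (9.339) and replicate 2 was low for Amacr (11.38).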

How the results depend on the processing

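Of 1906 values of single genes under alternatives other than leaving out 1 array, 1826 kept their side of the threshold, 44 newly passed and 35 no longer passed. A change of direction was counted only for values that passed with or without the alternative, and 1 turned. Values that passed in neither fit were not followed for direction. The 1 was Acaa2 with both kidneys, at -0.23 (SBH/y minus SBN/y, adjusted p = 0.0218) with the mean of its probe sets, against 0.05, since its second, dim probe set gave -0.51. The clock gene score as a covariate ended all calls for uninephrectomy in SBH/y (0) and for the interaction (0), and leaving out the 2 arrays with scores apart raised the interaction to 6. Leaving out each array in turn gave 12 to 16 genes for strain with both kidneys, 13 to 17 after uninephrectomy, 0 to 1 for uninephrectomy in SBN/y (Ppara), 9 to 14 for uninephrectomy in SBH/y and 2 to 4 for the interaction. The 14 and the 4 came without uninephrectomized SBH/y replicate 2. Over all probe sets, these fits gave 4841 to 6528, 6095 to 6955, 62 to 167, 1925 to 3145 and 306 to 870 calls, in the same order. Other alternatives kept each count of genes within 1.5 times.

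Same-numbered arrays correlated in their deviations at -0.0948 to 0.586, not above 0.1 in every pair, so the numbers were not taken to pair them. Their medians, 0.0444 to 0.208, lay above those of differently numbered arrays, -0.0454 to -0.0171, in each comparison of 2 groups. What same-numbered arrays share was not tested. With the replicate block, 15, 18, 0, 12 and 3 genes passed for strain with both kidneys, strain after uninephrectomy, uninephrectomy in SBN/y, uninephrectomy in SBH/y and the interaction. Calls over all probe sets also rose under the block for uninephrectomy in SBN/y and the interaction, as given below. For the strain comparisons and uninephrectomy in SBH/y, calls over all probe sets under the block are not given here. The counts of genes for these comparisons are therefore not results about the set. Abcd3 rose after uninephrectomy in SBH/y under the block.

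Over all probe sets, calls for uninephrectomy in SBN/y numbered 144, with 60 from only those 2 groups and 280 with the block. For the interaction they numbered 439, with 812 under the block, 977 without the 2 arrays and 0 with the covariate. Ppara and Acox3 had means below the lowest array median, with detection not known, so a missing call there does not show unchanged RNA.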
